A study of Sus scrofa with 22 samples.

Results

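The genes described here are the interleukins, chemokines, colony-stimulating factors and tumour necrosis factor (TNF) superfamily genes of the porcine endometrium, with their receptors. They were chosen by a rule on gene symbols (IL, CXCL, CXCR, CCL, CCR, CX3C, TNFRSF, TNFSF and CSF with a number, and LIF, LIFR, OSMR, CNTFR, TNF and TSLP, leaving out IL10RB, a receptor chain that the rule drops by name, and symbols that share only the letters). The choice was made with earlier results of these data known. In all, 47 of the 12401 genes listed for any cell type were members, 43 of 11415 in luminal epithelium (LE), 34 of 11676 in glandular epithelium (GE) and 39 of 11532 in stroma (S). The 32 members listed in all 3 cell types were joined by 8 listed in LE only (among them CCR8, CCL2 and IL1RL2), 2 in S only (CX3CR1 and CXCR4), 3 shared by LE and S, and 2 shared by GE and S (CCL28 and LIF). A further 114 of 161 annotated pig symbols that match the rule have no values in these tables, among them IL1B, IL6, TNF and CXCL8, and were not analysed here.

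Cytokines are secreted proteins that act on cells carrying the matching receptor chains. Receptors of the interleukin-1 family and the TNF receptors pass their signal to the transcription factor NF-kappa-B, whereas receptors that use the shared chain gp130 (IL6ST) and those of the interleukin-10 family activate JAK kinases and STAT factors. Around the time when the pig conceptus elongates it is known to secrete an interleukin-1 beta, and the uterine lining is known to carry the receptor for it.

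The 22 libraries were made from areas cut by laser capture microdissection from snap-frozen endometrium of 8 gilts, crossbreeds of German Landrace and Piétrain that were prepuberal and had been given the gonadotropins PMSG and hCG to time ovulation. The 4 pregnant gilts (01, 03, 05 and 14) were inseminated with German Landrace semen, and the 4 control gilts (02, 04, 06 and 13) received only supernatant left after centrifuging semen of that boar. All were killed on Day 12. Each gilt gave 1 LE and 1 GE library, and 3 gilts of each group gave 1 S library (not gilts 03 and 06). According to the study, S areas hold fibroblasts along with other cells, above all immune cells. In such samples fewer cells of a type and less RNA per cell cannot be told apart. Values are CPM (counts scaled to a library of fixed size) after TMM normalization within a cell type, and totals were 893912 to 4020796 counts per library. In these totals 3 counts, the level below which a value was taken as unreliable, equal 0.69 to 3.50 CPM.

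The marker genes followed the labels poorly in S, and not cleanly in LE and GE. The summed CPM of 12 epithelial markers was 3129 to 3982 in the 3 control S libraries, against 3413 to 4142 in control LE, and the sum of 10 fibroblast markers was lower in control S (4799 to 8583) than in control LE (11494 to 17089). In pregnant S, gilt 01 had 62502 CPM of fibroblast and 1526 of epithelial markers, whereas gilt 05 had 8286 and 5436. KRT7, a keratin of simple epithelia picked after its values were seen, was at 90.6 to 203 CPM in control S, 8.88 to 34.2 in pregnant S, 122 to 239 in control LE, 33.9 to 86.7 in pregnant LE and 9.45 to 66.9 in GE. The list as a whole did not follow KRT7. In LE its sum was 4456 to 6014 CPM in pregnant gilts, with 5 of the 12 called higher (MUC1, CLDN3, CLDN4, ELF3 and CDH1) and 3 lower (KRT7, KRT8 and KRT19). In S KRT7 was the 1 marker called lower, with 0 higher and a median log2 fold change of −0.15 over the 12. The keratins KRT8, KRT18 and KRT19 were lower in S without a call (−1.38, −1.15 and −0.50, unadjusted p = 0.00291, 0.00326 and 0.376 in edgeR). CDH1, CLDN3, CLDN4, EPCAM and MUC1 lay at 0.21 to 0.65, also without a call. Results for S are therefore results for the libraries labelled S, and the values without gilt 01 are given beside them. In GE, the control library of gilt 02 had 47089 CPM of fibroblast and 8449 of smooth muscle markers, and that of gilt 13 had 4311 and 14.6. The summed epithelial markers were 942 to 2846 CPM in control and 2896 to 3833 in pregnant GE, so that control GE lay below control S. Values for LE and GE are likewise those of the libraries so labelled. Of 29 leukocyte markers, 9 were listed in LE and 8 each in GE and S. Their sum was 174 to 305 CPM in control and 294 to 371 in pregnant LE, 1 of the 9 (LAPTM5) being called higher, and it was 143 to 144 in control and 186 to 358 in pregnant S. Of 5 lymphatic endothelial markers 4 were listed in S, with a sum of 4.97 to 7.87 CPM in control and 27.6 to 252 in pregnant gilts. Of these, 2 were called higher and 0 lower, beside 1.47% of all genes called in S. For 8 blood endothelial markers the sums in S were 266 to 478 and 292 to 2022 CPM, with 0 called. Only 2 of 19 trophectoderm markers were listed in LE (GATA2 and PAG1), with a sum of 94.8 to 114 CPM in control and 20.3 to 54 in pregnant gilts. Because the control gilts held no conceptus, these 2 genes cannot serve here as a measure of trophectoderm.

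**Figure D1:**
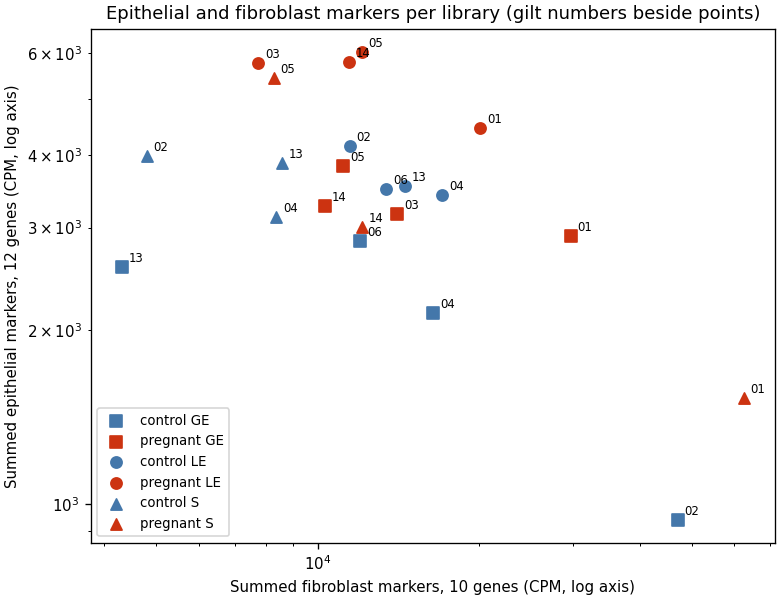
Summed CPM of 10 fibroblast markers (horizontal log axis) against 12 epithelial markers (vertical log axis), with 1 point per library, the gilt number beside it, colour for status and shape for the labelled cell type. The control S libraries lie at 3129 to 3982 CPM of epithelial markers, within or near the LE range, and pregnant S of gilt 01 lies apart at 62502 CPM of fibroblast markers.

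Because the results centre on the interleukin-1 family, 4 of its promoters are shown: the receptor chains IL1R1 and IL1RAP, the neighbouring receptor gene IL18R1, which moved the other way, and the ligand IL1A. Each window runs from 250 bases before to 50 bases after the annotated gene start (Sscrofa11.1), 5′ to 3′ on the strand of the gene, and capitals mark matches to 1 of 3 motifs. The motifs, searched on both strands, were the NF-kappa-B consensus, the STAT motif TTCNNNGAA and the AP-1 motif TGANTCA, and matches were counted also where they overlapped.
IL1R1 (chr3:52334685-52334984, minus strand): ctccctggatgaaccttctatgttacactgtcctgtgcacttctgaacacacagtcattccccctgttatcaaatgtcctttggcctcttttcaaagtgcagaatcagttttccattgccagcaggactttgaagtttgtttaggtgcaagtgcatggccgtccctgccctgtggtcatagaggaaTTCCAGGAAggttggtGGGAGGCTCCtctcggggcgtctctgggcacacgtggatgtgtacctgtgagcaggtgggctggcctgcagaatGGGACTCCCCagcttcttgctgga
IL1RAP (chr13:127932989-127933288, plus strand): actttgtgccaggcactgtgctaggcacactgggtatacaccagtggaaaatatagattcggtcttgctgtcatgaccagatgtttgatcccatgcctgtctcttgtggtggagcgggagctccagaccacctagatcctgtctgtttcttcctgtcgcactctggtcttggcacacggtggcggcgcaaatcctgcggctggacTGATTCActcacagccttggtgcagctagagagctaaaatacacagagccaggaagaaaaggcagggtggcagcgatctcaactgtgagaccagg
IL18R1 (chr3:51844709-51845008, minus strand): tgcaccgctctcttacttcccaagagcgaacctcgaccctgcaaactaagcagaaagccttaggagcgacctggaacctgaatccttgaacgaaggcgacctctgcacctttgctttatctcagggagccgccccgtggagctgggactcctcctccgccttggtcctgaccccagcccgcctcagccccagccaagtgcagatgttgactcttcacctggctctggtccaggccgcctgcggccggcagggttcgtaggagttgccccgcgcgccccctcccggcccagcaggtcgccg
IL1A (chr3:43718070-43718369, plus strand): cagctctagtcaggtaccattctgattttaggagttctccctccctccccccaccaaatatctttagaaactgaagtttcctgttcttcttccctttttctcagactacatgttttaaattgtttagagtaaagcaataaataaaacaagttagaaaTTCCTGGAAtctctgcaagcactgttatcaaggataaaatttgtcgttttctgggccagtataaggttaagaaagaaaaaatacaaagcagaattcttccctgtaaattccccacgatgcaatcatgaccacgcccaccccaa
The IL1R1 window held 2 NF-kappa-B matches and 1 STAT match, the latter starting 64 bases before the gene start. IL1RAP had 1 AP-1 match, IL1A 1 STAT match, and the IL18R1 window had none of these letters. Over the 47 members, 14.9% of windows held an NF-kappa-B match, 8.51% a STAT match and 6.38% an AP-1 match, compared with 15.2%, 6.58% and 4.77% of all 12397 windows searched. A match is a run of letters and does not show binding.

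In the comparison of pregnant and control LE, which asks how the epithelium facing the conceptus had changed, 9 of 43 members (20.9%) passed an FDR below 0.01 in edgeR's quasi-likelihood test, compared with 10.0% of all genes listed. IL1R1, IL1RAP, TNFRSF21 and CCR8 rose (higher calls were 6.33% of all genes), and IL17RD, IL20RA, IL11RA, IL18R1 and IL1A fell (lower calls were 3.71%). Scaled by library size alone in place of TMM, all genes split into 5.1% higher and 4.99% lower calls, and the 9 members were called in the same directions. The median log2 fold change was −0.14 for the 43 members and 0.01 for all genes. Of the 9, 8 are receptor chains and IL1A is the only ligand. Receptor chains also make up most of the 43 members listed, so that this is no result about receptors against ligands. DESeq2 called 11 members and 19.1% of all genes. The edgeR calls include CCR8 and IL20RA, whose listing in LE rests on the group where each was higher.

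**Figure D2:**
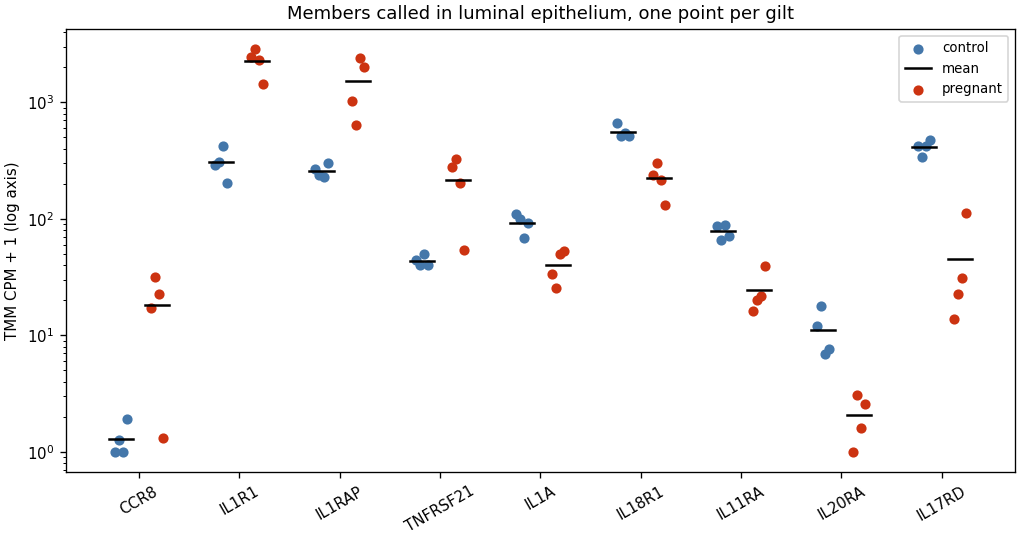
TMM CPM + 1 (log axis) of the 9 members called in LE, with 1 point per gilt for 4 control and 4 pregnant gilts and a line at each group mean. IL1R1 lies at 201 to 425 CPM in control and 1447 to 2865 in pregnant gilts, and only CCR8 has a pregnant gilt (14) within the control range.

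The interleukin-1 family held 4 of the 9 calls among its 7 listed members. IL1R1, the signalling receptor for interleukin-1 alpha and beta, was at 290.1, 306, 425 and 201 CPM in control LE (gilts 02, 04, 06 and 13) and at 2436, 2865, 2333 and 1447 in pregnant LE (gilts 01, 03, 05 and 14). The lowest pregnant gilt was thus above the highest control gilt, and the means were 305 ± 92 and 2270 ± 596 CPM (SD, n = 4 each). This is a log2 fold change of 2.89 ± 0.29 (standard error implied by the edgeR statistic, as in all later values; adjusted p = 0.000157, 7.43-fold). IL1RAP, the accessory chain that IL1R1 needs to signal, was at 267, 238, 230.0 and 300.1 CPM in control and 1027, 634, 2405 and 2022 in pregnant LE. All pregnant gilts were above all controls, although they spread over a wider range, and the log2 fold change was 2.56 ± 0.38 (edgeR adjusted p = 0.00132, 5.88-fold). IL1R1 and IL1RAP kept their call whichever of the 8 gilts was left out, with log2 fold changes of 2.75 to 3.11 and 2.25 to 2.81.

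The only listed ligand of this receptor pair moved in the opposite direction, and the ligand genes IL1B and IL1B2 have no values here. IL1A, which encodes interleukin-1 alpha, was at 109, 98.9, 67.2 and 91.6 CPM in control and 32.7, 24.4, 48.7 and 51.9 in pregnant LE. The groups did not overlap, and the log2 fold change was −1.19 ± 0.26 (edgeR adjusted p = 0.00913). IL18R1, the ligand-binding chain of the interleukin-18 receptor, was at 665, 518, 540.1 and 510.2 CPM in control and 239, 299, 216 and 132 in pregnant LE, again without overlap (log2 fold change −1.34 ± 0.24, edgeR adjusted p = 0.0036). IL18R1, IL1RL2 and IL1R1 lie on the minus strand of chromosome 3 between 51803383 and 52334734 (Sscrofa11.1). Of these neighbours IL18R1 fell, IL1R1 rose, and IL1RL2, a receptor chain for interleukin-36, was at 0.46 to 15 CPM in control and 1.56 to 18.7 in pregnant LE with no call.

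Among the remaining interleukin-1 family members of LE, IL1RAPL2, a receptor-like gene of the X chromosome, had 17.1 to 41 CPM in control and 1.17 to 22.2 in pregnant gilts (log2 fold change −1.71 ± 0.64, edgeR adjusted p = 0.0831). IL33, a ligand released from damaged cells, was below 14 CPM in every LE library but that of pregnant gilt 01 (67.7 CPM). That library was also the shallowest, with 4969 CPM of smooth muscle markers against at most 631 in control LE. The IL33 log2 fold change was 1.38 ± 0.90 with it and −0.28 without it.

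In the TNF receptor family, 1 of 6 members listed in LE was called. TNFRSF21, a death domain receptor, was at 43.5, 39.5, 49.1 and 39.1 CPM in control and 278, 327, 202 and 52.8 in pregnant LE. Gilt 14 was close above the highest control and the other 3 pregnant gilts were far above it (log2 fold change 2.32 ± 0.45, edgeR adjusted p = 0.00505). TNFRSF1A, the main TNF receptor, had 35.1 to 54.5 CPM in control and 52.5 to 65.4 in pregnant LE (log2 fold change 0.48 ± 0.19, edgeR adjusted p = 0.0901). TNFSF10, the ligand TRAIL, had 70.3 to 93 CPM in control gilts, and in pregnant gilts 24.5, 39.5 and 29.3 CPM but 70.6 in gilt 14. Its log2 fold change was −0.96 ± 0.30 (edgeR adjusted p = 0.041), and without gilt 14 it was −1.37 (edgeR adjusted p = 0.00129).

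CCR8, a chemokine receptor best known from T cells, was the only chemokine receptor listed in LE. It had 0, 1, 0 and 4 counts in the control libraries and 14, 59, 71 and 1 in the pregnant libraries, which equals 0 to 0.921 CPM against 16.3, 30.6, 21.5 and 0.312. The pregnant library of gilt 14 was thus within the control range. The log2 fold change of 5.42 ± 1.15 (edgeR adjusted p = 0.00827) has control libraries near 0 beneath it and is imprecise. Without gilt 14 it was 5.86 (edgeR adjusted p = 0.000164). Of the 9 leukocyte markers listed in LE, whose sum is given above, LAPTM5 was called higher (55.4 to 87.4 CPM in control and 204 to 263 in pregnant gilts) and 0 lower, and the median log2 fold change over the 9 was −0.21. PTPRC, the pan-leukocyte marker, was at 27.3 to 76.9 CPM in control and 16.1 to 27.2 in pregnant LE, and no T cell marker of the list (CD3D, CD3E, CD3G, CD2, CD4 or CD8A) was listed in LE. The part of leukocytes in the CCR8 result was not tested.

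Of the 6 chemokine ligands in LE none was called by edgeR or DESeq2, and 1, CXCL16, had an unadjusted p below 0.05, as had 35.6% of all genes. CXCL16, a membrane-bound chemokine of epithelia, was at 219.9, 244, 310.1 and 269 CPM in control and 169, 218, 201 and 159 in pregnant LE. The groups were separated by a narrow margin (log2 fold change −0.48 ± 0.17, edgeR adjusted p = 0.0716). CXCL10, an interferon-induced chemokine, ranged from 7.75 to 84.7 CPM in control and 2.33 to 35.9 in pregnant LE. CCL2, a monocyte attractant, ranged from 1.87 to 24.6 and from 2.6 to 9.06 CPM. For CXCL10 and CCL2 control gilt 13 was the highest of the 8 gilts.

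The 3 calls in the remaining families were all lower in pregnant gilts. IL17RD, a membrane protein that dampens fibroblast growth factor signalling and takes part in interleukin-17 signalling, was at 420.3, 342, 419 and 472 CPM in control and 12.8, 21.8, 29.9 and 111 in pregnant LE. No pregnant gilt came near the controls, and the log2 fold change was −3.17 ± 0.55 (edgeR adjusted p = 0.00294, 9.03-fold lower). IL11RA, the interleukin-11 receptor, was at 85.6, 64.9, 88.4 and 70.6 CPM in control and 15.2, 19.2, 20.9 and 38.4 in pregnant LE. These groups too were apart, with a log2 fold change of −1.68 ± 0.27 (edgeR adjusted p = 0.0021). IL20RA, a receptor chain for interleukins 19, 20 and 24, had 5.92 to 16.8 CPM in control and 0 to 2.08 in pregnant LE, where no library held more than 5 counts (log2 fold change −3.06 ± 0.59, edgeR adjusted p = 0.00526). The listing of IL20RA in LE thus rests on the control libraries.

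IL24, a ligand of this receptor, was at 146, 159, 261 and 97.6 CPM in control LE and at 117, 18.2, 20.9 and 20.6 in pregnant LE. Pregnant gilt 01 was within the control range and the other 3 were below it, so that the log2 fold change was −2.03 ± 0.60 (edgeR adjusted p = 0.035) with gilt 01 and −3.05 (edgeR adjusted p = 0.000467) without it. Of the exon bases of IL24, 48.3% overlap FCMR in the annotation, and reads from these genes may have been shared between them. IL20RB, the partner chain, was at 7.31 to 11.7 CPM in control and 7 to 13.1 in pregnant LE.

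A further pair of receptors had all pregnant libraries above the controls but missed the threshold. IL27RA, the interleukin-27 receptor, was at 31, 19, 13.6 and 21.4 CPM in control and 54.9, 48.8, 46.6 and 35.9 in pregnant LE (log2 fold change 1.12 ± 0.26, edgeR adjusted p = 0.0133). IL17RA, the shared interleukin-17 receptor, was at 21.6 to 23.3 CPM in control and 24.9 to 47.9 in pregnant LE (log2 fold change 0.69 ± 0.23, edgeR adjusted p = 0.0535). IL6ST, the gp130 chain with which IL11RA and IL27RA signal, was at 237 to 335 CPM in control and 179 to 325 in pregnant LE (log2 fold change −0.14 ± 0.21). IL6R was at 12 to 16.2 CPM in control LE and at 10.5, 111, 33.9 and 15.9 in pregnant LE, and its log2 fold change of 1.63 ± 0.61 was 0.59 without pregnant gilt 03. In all, 11 of 43 members had libraries that did not overlap in LE, as had 26.7% of all genes.

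Several LE calls were lost when 1 gilt was left out. Without pregnant gilt 05 only IL1R1 and IL1RAP were called, and with the 6 gilts that also gave S libraries these 2 alone remained. The share of all genes called in these smaller fits is not given here, so that the lower counts are no result about the members. IL11RA and IL17RD lost their call without pregnant gilt 05 alone (adjusted p = 0.01003 and 0.0134 in edgeR). IL20RA lost it without control gilt 02 or 04 or pregnant gilt 05, and IL18R1 without any control gilt or pregnant gilt 05. TNFRSF21, CCR8 and IL1A were called only when all 8 gilts or all but gilt 14 of the pregnant group entered, with adjusted p of 0.0113 to 0.0316 in the other 7 edgeR fits without 1 gilt. All 9 kept their direction in each of these fits.

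Genes that act below these receptors were counted from lists. Of 13 NF-kappa-B subunits and inhibitors, 6 rose in LE and 0 fell at the same threshold, at which 6.33% of all genes rose and 3.71% fell, with a median log2 fold change of 0.99 over the 13 and 0.01 over all genes. They were NFKBIA (3.31 ± 0.41), RELB (2.68 ± 0.26), NFKBIE (2.55 ± 0.29), NFKB2 (2.21 ± 0.19), REL (1.34 ± 0.25) and NFKBIB (1.30 ± 0.21), where the NFKBI genes encode inhibitors and the others subunits. Of 11 TNF receptor adaptors, TRAF2, BIRC3 and TNIP1 rose (1.73, 1.89 and 1.64 on the log2 scale). Of 14 adaptors and kinases of interleukin-1 and Toll receptors, PELI1 rose and PELI2 fell (1.93 and −2.41), both encoding Pellino ubiquitin ligases, and the median over the 14 was 0.02. Over 10 JAK and STAT genes the median was 0.43 and 0 fell. Those that rose included STAT4, STAT5A and STAT5B (2.33, 2.14 and 0.91). JAK1, JAK2, TYK2 and STAT3 were not called (0.27, −0.11, −0.18 and 0.01). Of 10 inhibitors SOCS4 rose and SOCS6 fell (1.06 and −1.35, median 0.02 over the 10). The adaptor and inhibitor lists of PELI1 and SOCS4 thus held 1 call in each direction, beside 10.0% of all genes called in either. ACKR3, an atypical receptor that takes up CXCL12, fell (−2.62 ± 0.23), while CXCL12 itself was at 19.8 to 31.4 CPM in control and 10.9 to 50.2 in pregnant LE. In GE 0 genes of these lists were called, and in S, where 1.47% of all genes were called, NFKBIA rose and SOCS6 fell (2.54 and −1.38, unadjusted p = 0.00126 and 0.00137 in edgeR). Without pregnant gilt 01 these were 2.75 and −1.21 and still called, and BIRC3 (1.95) and PELI2 (−2.55) were called as well.

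**Figure D3:**
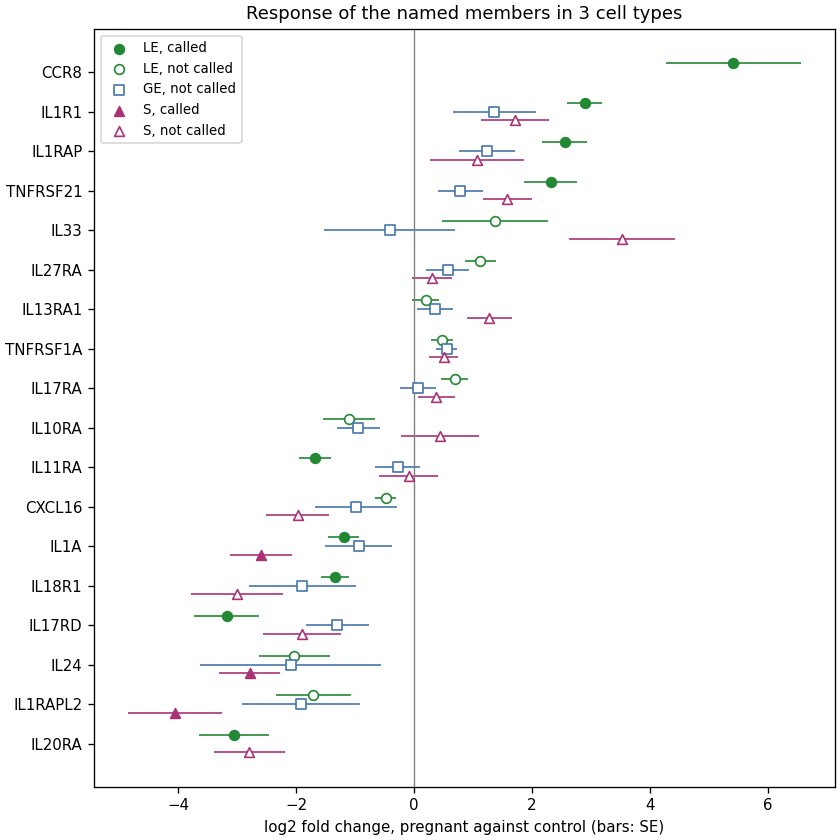
Log2 fold change of pregnant against control gilts (horizontal axis) with its standard error in LE, GE and S for the 18 members named for these comparisons, filled symbols marking calls. CCR8, IL1R1, IL1RAP and TNFRSF21 are called higher and IL1A, IL18R1, IL17RD, IL11RA and IL20RA lower in LE, no GE symbol is filled, and IL1A, IL24 and IL1RAPL2 are called lower in S.

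In GE, where the threshold was an unadjusted p below 0.0021, 0 of 34 members were called by edgeR and 0 by DESeq2, which called 0.694% and 2.06% of all genes. At an unadjusted p below 0.05, edgeR gave 4 members (TNFRSF1A, IL1RAP, IL10RA and IL17RD), and 8.09% of all genes. The median log2 fold change was −0.15 for the 34 members and −0.02 for all genes. TNFRSF1A was at 49, 43.9, 35.3 and 49.4 CPM in control and 72.2, 67.3, 57.4 and 64 in pregnant GE, without overlap (log2 fold change 0.55 ± 0.18, edgeR adjusted p = 0.468). IL10RA, the interleukin-10 receptor, was at 8.37 to 11.1 CPM in control and 2.72 to 7.57 in pregnant GE (log2 fold change −0.94 ± 0.36, edgeR adjusted p = 0.542). These were the only 2 members without overlap, and 4.92% of all genes had none. For TNFRSF1A, 20.2% of the exon bases overlap PLEKHG6.

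The receptor pair that rose in LE spread widely in GE. IL1R1 was at 170.1, 110.2, 290.4 and 19.7 CPM in control and 635, 303, 428 and 150.2 in pregnant GE, with gilt 14 below 2 of the controls (log2 fold change 1.36 ± 0.70, edgeR adjusted p = 0.685). IL1RAP was at 84, 121, 215 and 92.4 CPM in control and 369, 143, 535 and 168 in pregnant GE (log2 fold change 1.24 ± 0.48, edgeR adjusted p = 0.542). Control gilt 06 had the highest level among controls for both. The same library also stood out for IL18R1 (383 CPM, other controls 8.64 to 90.1), CXCL16 (171 CPM, others 11.1 to 45.8), IL24 (139.9 CPM, others 0 to 15.7) and IL1A (63 CPM, others 10.8 to 20.5). Without it the log2 fold changes of these 4 genes in GE were −0.63, 0.07, 0.10 and −0.03, in place of −1.90, −0.98, −2.10 and −0.94.

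Control gilt 02, the GE library with the highest fibroblast markers, had 215 CPM of IL33, 127 of IL17B and 67.1 of CX3CL1, whereas the other controls had at most 29.6, 11.9 and 7.77. Its fibroblast and smooth muscle markers were high together with these genes, and their part in the result was not tested. The IL33 log2 fold change in GE was −0.41 ± 1.12 with this library and 1.82 without it.

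CCL28, a mucosal chemokine, and LIF, a cytokine of the gp130 family, were listed in GE and S but not in LE. CCL28 was at 24.7, 109, 17.2 and 147 CPM in control and 44.4, 83, 37.1 and 525 in pregnant GE, and at 1.18, 138 and 58.6 in control S (gilts 02, 04 and 13) and 98.7, 40.9 and 682 in pregnant S (gilts 01, 05 and 14). Gilt 14 was the highest in GE and in S. LIF was at 2.88 to 81 CPM in control and 21.6 to 66.1 in pregnant GE, and at 3.21 to 20.1 in control and 8.58 to 28.3 in pregnant S. The groups overlapped for CCL28 and LIF in GE and in S. Their log2 fold changes in S were 2.06 ± 1.41 and 1.26 ± 0.83, and 2.40 and 1.01 without pregnant gilt 01.

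In the libraries labelled S, 3 of 39 members (7.69%) passed an unadjusted p below 0.0021, all lower in pregnant gilts, compared with 1.47% of all genes in either direction and 1.05% lower. In the LE fit used here an FDR of 0.01 was reached at an unadjusted edgeR p-value of 0.001003, a stricter value than 0.0021. At this p, a choice made after seeing the data, only IL24 was called in S (0.858% of all genes) and 0 members in GE (0.428%). Because these calls rest on an unadjusted p, the adjusted values of 0.114 to 0.127 belong beside them, and at an FDR below 0.05 edgeR called 0 members (0.251% of all genes). At an unadjusted p below 0.05 there were 13 members (12.5% of all genes), and DESeq2 called 8 at p below 0.0021 (4.44%). The median log2 fold change was 0.44 for the 39 members and 0.08 for all genes. IL24 was at 117, 94.1 and 98.5 CPM in control and 24.3, 16.7 and 5.21 in pregnant S (log2 fold change −2.79 ± 0.52). As in LE, its counts may hold reads of FCMR, which overlaps 48.3% of its exon bases. IL1A was at 138, 71.3 and 97.7 CPM in control and 7.28, 29.5 and 12.6 in pregnant S (−2.60 ± 0.53). IL1RAPL2 was at 69.3, 19.3 and 41 CPM in control and 0, 2.34 and 4.29 in pregnant S (−4.06 ± 0.80). No pregnant library reached a control library for any of the 3 genes.

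Without pregnant gilt 01, the library with the high fibroblast markers, 2 members were called (1.5% of all genes). IL24 (−3.26) and IL1RAPL2 (−3.69) were still called, and IL1A (−2.31, unadjusted p = 0.00259 in edgeR) was not. IL24 lost its call without any control library or pregnant gilt 05. IL1RAPL2 lost it without control gilt 02 or 13 or pregnant gilt 05, and IL1A without any library but that of pregnant gilt 05.

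In all, 12 of 39 members did not overlap between pregnant and control S, as did 17.6% of all genes. The 7 lower ones (9.38% of all genes) were IL24, IL1A, IL1RAPL2, IL20RA, IL18R1, CXCL16 and IL17RD. IL18R1 was at 719, 356 and 565 CPM in control and 27.5, 152 and 22.4 in pregnant S (log2 fold change −3.01 ± 0.78, and −2.67 without gilt 01). CXCL16 was at 223, 154 and 304 CPM in control and 29.1, 106 and 36.8 in pregnant S (−1.97 ± 0.54, and −1.70 without gilt 01). For IL20RA and IL17RD the values were −2.79 ± 0.61 and −1.90 ± 0.66, and −2.73 and −1.84 without gilt 01. IL20RA was at 0.809 to 1.34 CPM in pregnant S, with at most 4 counts per library, so that its fold change is imprecise. Its listing in S likewise rests on the control libraries. Over the same libraries the 12 epithelial markers summed to 3129 to 3982 CPM in control S and 1526, 5436 and 3007 in pregnant S (gilts 01, 05 and 14). KRT7, 1 of the 12, was lower in each pregnant library than in any control library. The other keratins of the list (KRT8, KRT18 and KRT19) had log2 fold changes of −1.38, −1.15 and −0.50, and the median over the 12 was −0.15. The part of epithelial cells in these differences was not tested. The 5 higher ones (8.18% of all genes) were IL33, TNFRSF21, IL13RA1, IL1R1 and TNFRSF1A. IL33 was at 4.72, 6.43 and 4.03 CPM in control and 129, 9.04 and 42.9 in pregnant S (log2 fold change 3.53 ± 0.90, edgeR adjusted p = 0.194, and 2.31 without gilt 01). IL1R1 was at 245, 185 and 227 CPM in control and 361, 1418 and 375 in pregnant S (1.71 ± 0.57, edgeR adjusted p = 0.296, and 2.01 without gilt 01). IL13RA1, a receptor chain for interleukins 4 and 13, was at 20.1 to 27.5 CPM in control and 31.1 to 79.3 in pregnant S (1.27 ± 0.38, edgeR adjusted p = 0.254, and 0.91 without gilt 01). TNFRSF21 and TNFRSF1A had log2 fold changes of 1.58 ± 0.41 and 0.50 ± 0.24, and of 1.75 and 0.36 without gilt 01.

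The macrophage growth factor CSF1 and its receptor CSF1R stood out in 1 library of S. CSF1 was at 7.48 to 11.3 CPM in control S and at 48.5, 9.04 and 19.6 in pregnant S, and CSF1R at 16.8 to 21 and at 92.2, 18.8 and 20.5. For both genes pregnant gilt 01 was the highest. Among S libraries it also had the most leukocyte (358 CPM), fibroblast (62502 CPM), blood endothelial (2022 CPM) and smooth muscle markers (1095 CPM). The part of these cells in the CSF1 and CSF1R values was not tested. Without pregnant gilt 01 the log2 fold changes of CSF1 and CSF1R were 0.55 and 0.04, in place of 1.38 ± 0.61 and 1.20 ± 0.64. CXCR4 and CX3CR1, chemokine receptors of leukocytes, were at 0.366 to 19.6 and 3.01 to 8.27 CPM in S and overlapped between the groups.

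Differences between cell types in the response of a member were tested as interaction contrasts of 1 fit to all 22 libraries, over the 10643 genes listed in all 3. None of the 32 members passed an FDR below 0.01 for GE against LE, S against LE or S against GE (edgeR, 0.0% of all genes in each). At an unadjusted p below 0.05 there were 3, 6 and 4 members (12.5%, 10.8% and 6.05% of all genes). DESeq2 called 0 members in each contrast (1.04%, 0.197% and 0.0% of all genes). With the gilt as a block, which pairs the libraries of an animal, 0 members were called as well (0.395%, 0.0188% and 0.0%). The nearest was then IL17RD, whose log2 fold change was less negative in GE than in LE by 2.26 ± 0.58 (edgeR adjusted p = 0.0531 with the gilt block, 0.367 without), followed by IL11RA (1.64 ± 0.47, edgeR adjusted p = 0.0779 with the block, 0.302 without). For IL1R1 the response in S minus that in LE was −1.21 ± 0.87 (edgeR adjusted p = 0.642).

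**Figure D4:**
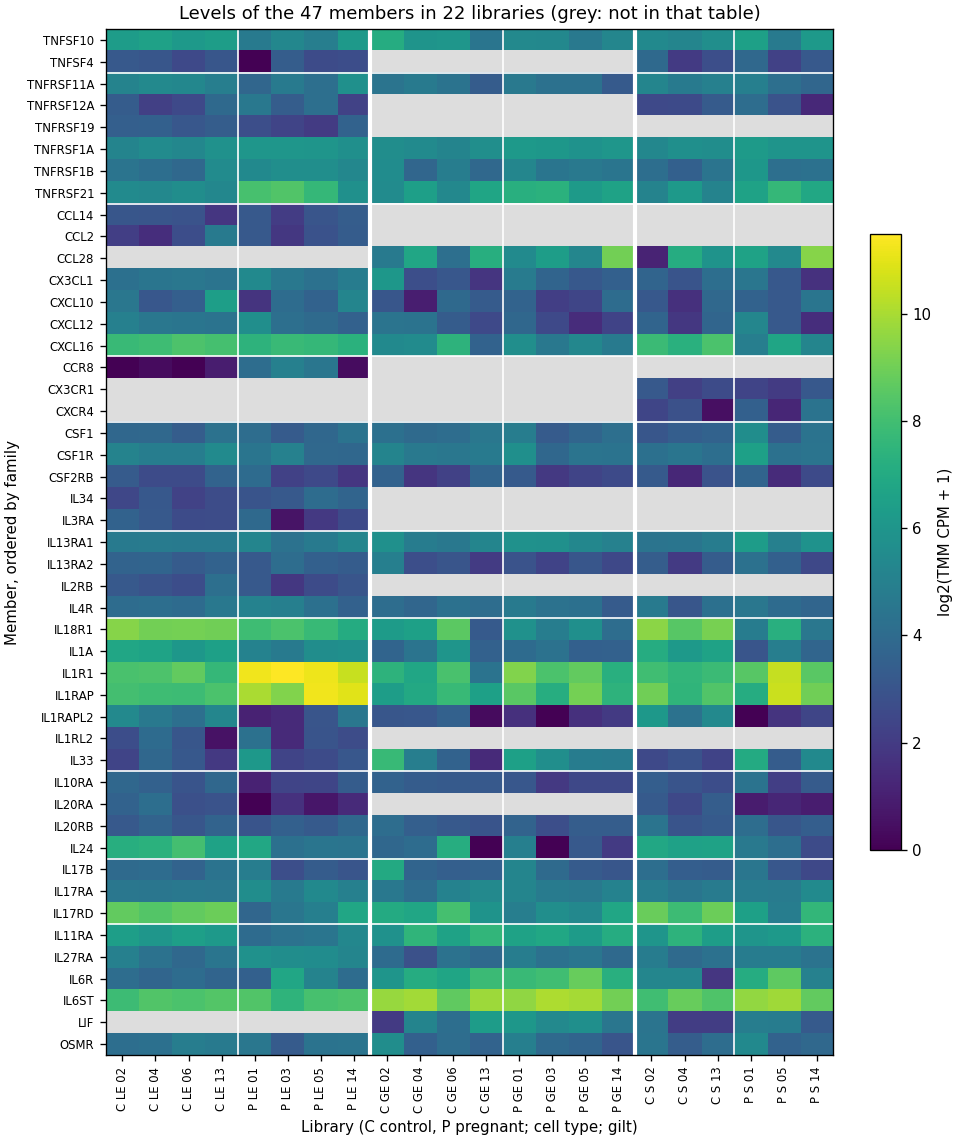
Log2(TMM CPM + 1) of the 47 members (rows, by family) in the 22 libraries (columns, C control and P pregnant, cell type and gilt), with grey where a member is not listed. IL1R1 and IL1RAP are brightest in pregnant LE, IL6ST in GE, and IL18R1, IL17RD and CXCL16 are brighter in control LE and control S than in pregnant S.

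The level of a member, averaged over both groups, was compared between cell types in the same joint fit. For GE against LE, 10 of 32 members passed an FDR below 0.01 (14.1% of all genes), 12 with the gilt as a block (20.8%) and 11 in DESeq2 (20.5%). The 3 higher in GE (7.83% of all genes) were of the gp130 family, which did not move as a whole. Of its other members in this fit, IL27RA was called higher in LE (means of 34.6 CPM in LE and 17.3 in GE). OSMR was not called (20.2 and 18.8 CPM). IL6ST was at 819 ± 237 CPM in GE and 292 ± 55 in LE (SD, n = 8 each), with the LE libraries at 183 to 341 and the GE libraries at 419.8 to 1106, so that none overlapped (log2 difference 1.49 ± 0.22, edgeR adjusted p = 0.000158). IL6R, the interleukin-6 receptor, was at 62 to 464 CPM in GE and 10.8 to 114 in LE (2.94 ± 0.56, edgeR adjusted p = 0.00101). IL11RA was at 53.5 to 189.8 CPM in GE and 15.7 to 89.6 in LE (1.46 ± 0.29, edgeR adjusted p = 0.00146). The LE average of IL11RA holds its lower level in pregnant gilts, the GE and LE means being 133 and 78.7 CPM in control and 109 and 23.9 in pregnant gilts. For IL6R they were 136 and 14.3 CPM in control and 273 and 43.8 in pregnant gilts.

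The 7 higher in LE (6.31% of all genes) were CXCL16, IL1A, IL1R1, IL18R1, IL27RA, IL1RAP and IL1RAPL2, of which 5 belong to the interleukin-1 family. CXCL16 was at 228 ± 51 CPM in LE and 51.8 ± 51.5 in GE (log2 difference of GE minus LE −2.20 ± 0.39, edgeR adjusted p = 0.000599), and of the 8 GE libraries the control of gilt 06 reached 175 CPM. For IL1R1 and IL1RAP, the LE mean of 1317 and 908 CPM contains the higher level in pregnant gilts (−1.82 ± 0.42 and −1.67 ± 0.42, edgeR adjusted p = 0.00346 and 0.00612). In control gilts alone IL1R1 had means of 311 CPM in LE and 150 in GE, and IL1RAP 263 and 131. With the block IL24 and CXCL12 were added, both higher in LE (−2.84 ± 0.57 and −1.46 ± 0.36, edgeR adjusted p = 0.00191 and 0.00633). IL6ST, IL6R and CXCL16 were called whichever gilt was left out, IL11RA in all but the fit without gilt 13 (edgeR adjusted p = 0.0116), and IL1RAPL2 in none of the 8 such fits.

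For S against LE and S against GE, 0 of 32 members were called (0.799% and 0.0% of all genes), and 0 with the gilt block (1.69% and 0.0%). At an unadjusted p below 0.05 there were 6 and 8 members (21.2% and 8.16% of all genes). DESeq2 called 1 and 0 members (3.93% and 0.0282% of all genes), the former being IL11RA. At an FDR below 0.05 edgeR called this gene too (4.23% of all genes), which was higher in S than in LE by 1.24 ± 0.31 on the log2 scale (edgeR adjusted p = 0.0299).

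**Figure D5:**
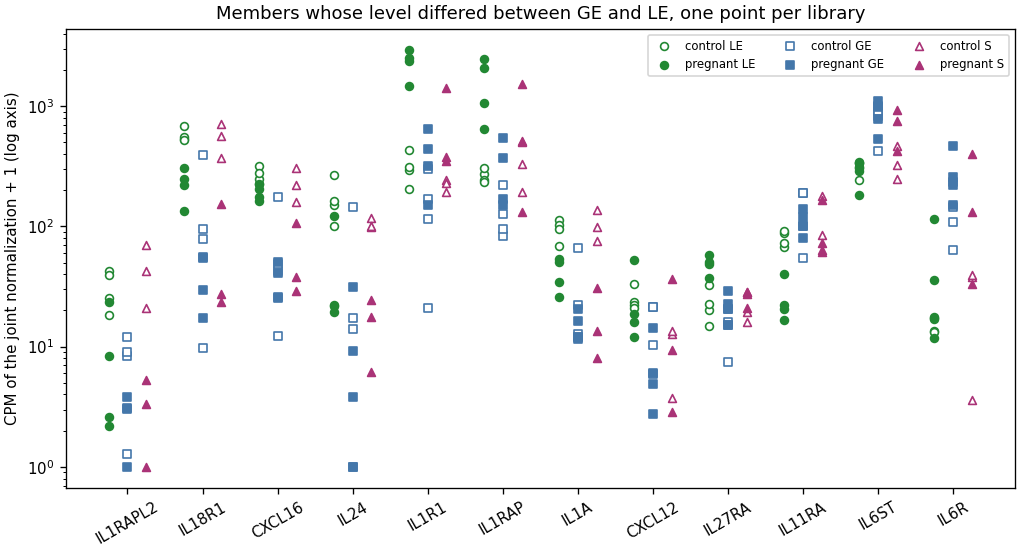
CPM of the joint normalization + 1 (log axis) for the 12 members whose level differed between GE and LE with or without the gilt block, with 1 point per library, shape and colour for cell type and filled symbols for pregnant gilts. LE libraries lie at 183 to 341 CPM for IL6ST and GE libraries at 419.8 to 1106, while S spreads over 246 to 924.

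Within a cell type, members were ranked by mean CPM per kilobase of exon. This length takes in all annotated exons of a gene and not those of 1 transcript, so that the order between genes is approximate. For IL24, 48.3% of these bases overlap FCMR. In control LE the order began with CXCL16 (152), IL18R1 (116), IL24 (54.7), IL1R1 (50.7) and IL17RD (45.8), whereas in pregnant LE it began with IL1R1 (377), IL1RAP (171), CXCL16 (109), TNFRSF21 (58.6) and IL18R1 (45.9). In GE the first 3 were IL6ST (108), CCL28 (83.6) and IL11RA (41.7) in control and CCL28 (194), IL6ST (117) and IL1R1 (62.9) in pregnant gilts. In S they were CXCL16 (132), IL18R1 (113) and CCL28 (73.8) in control and CCL28 (307), IL1R1 (119) and IL6ST (98.5) in pregnant gilts. The CCL28 level was highest in gilt 14 in GE and in S. Neighbours in these orders overlapped in their libraries, except IL18R1 and IL24 in control LE and CXCL16 and TNFRSF21 in pregnant LE.

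The other members listed in at least 1 cell type were called in none. They included CSF2RB, IL3RA and IL34 of the colony-stimulating factor family, IL2RB, IL4R and IL13RA2, the TNF family members TNFSF4, TNFRSF1B, TNFRSF11A, TNFRSF12A and TNFRSF19, the chemokines CCL14 and CX3CL1, and OSMR. Their log2 fold changes in LE lay between −0.76 (IL2RB) and 1.04 (IL34). For OSMR 52.2% of exon bases, and for IL17B and IL34 26.2% and 21.6%, overlap another gene, so that their counts may hold reads of the neighbour.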

How the data were processed

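RNA-seq libraries were prepared by the authors from LCM samples (Ovation SoLo), and reads were mapped with Hisat2 to Sscrofa11.1, cleared of PCR duplicates with the random adapter bases and counted per NCBI gene after a CPM filter. The deposited values are these raw counts, 1 table per cell type. The read counter, its strand setting and the filter level are not given in the sources used here. Genes absent from a table were not analysed in that cell type.

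Each cell type was fitted separately over all listed genes with edgeR 4.0.16 (R 4.3.3), using TMM normalization and the quasi-likelihood F test. Thresholds were a Benjamini-Hochberg FDR below 0.01 for LE, and p below 0.0021 without adjustment for GE and S, the number the study names as the p of its own LE threshold. In the LE fit used here the FDR of 0.01 lay at an unadjusted edgeR p-value of 0.001003, which was tried as an alternative. Differences between cell types were tested in a joint fit of 22 libraries and 10643 genes at an FDR below 0.01. Standard errors are the log2 fold change divided by the square root of F. Alternatives were DESeq2 1.42.0 (Wald test), other normalizations, filters and thresholds, leaving out gilts, and the gilt as a block. Counting error only is covered by the floor of 3 counts. Libraries of 1 group come from different gilts.

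Equal numbers mark 1 gilt per the labels. Deviations from the group means correlated within gilts with a median of 0.257 for LE and GE (above 0.1 in 6 of 8), 0.314 for LE and S (6 of 6) and 0.468 for GE and S (5 of 6).

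Members, marker lists and pathway lists were chosen with earlier results of these data known. Named members were those called in a fit, those whose libraries did not overlap, those differing between cell types, the 3 of highest mean CPM per cell type and their receptor or ligand partners. The fits were tested on simulated counts with known changes. Promoter windows and exon overlaps were read from the NCBI genome and annotation of Sscrofa11.1. Exon sequence of the members was compared with other genes in windows of 50 bases. Results for some pathway genes are not reported here.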

Additional observations from a re-analysis of the deposited data

How the results depend on the processing

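Against 9 members called in LE, 2 were called with the 6 gilts that have an S library, and 2 to 12 when 1 gilt was left out (2 without pregnant gilt 05, 4 without control gilt 04, 5 without control gilt 02 or 06). In S, against 3, there were 0 at an FDR below 0.05, 0 at an FDR below 0.01, 1 (IL24) at the p of 0.001003 that matches the LE threshold in these fits (an alternative chosen after seeing the data), 8 with the DESeq2 Wald test, and 0 to 5 when 1 library was left out (0 without control gilt 02 or 13, 1 without control gilt 04, 5 without pregnant gilt 05). The count of 10 members whose level differed between GE and LE fell to between 4 and 9 without 1 gilt (4 without gilt 04, 5 without gilt 02, 03 or 13, 6 without gilt 14), and that of S against LE went from 0 to 1 at an FDR below 0.05 and to 1 with DESeq2. The cause of these changes was not tested beyond the smaller number of libraries or the changed threshold that each alternative has by construction. For the fits with fewer gilts, the share of all genes called is given only for S without pregnant gilt 01. A lower count in the others is thus no result about the members. With the gilt as a block, which pairs libraries of the same gilt, the level of 12 members differed between GE and LE and 0 responses differed in any of the 3 contrasts, so that the calls of IL24 and CXCL12 were the only change. In GE and in the response contrasts every alternative gave 0 members. For named members, each only in the comparisons that it was named for, 428 values under the alternatives kept their side of the threshold, 89 lost it, 18 gained it and 0 changed direction. Outside these, leaving out 1 library turned the sign of uncalled values given in the report, among them IL33 in LE and in GE, and CXCL16 and IL24 in GE. Library size alone in place of TMM moved the median log2 fold change of all LE genes from 0.01 to −0.14, and the split of LE calls from 722 higher and 424 lower to 582 and 570. Depth limits CCR8 and IL20RA in LE, whose lower group lay at 0 to 5 counts per library. It also limits IL20RA and IL1RAPL2 in S, with at most 4 and 14 counts in a pregnant library. With 3 libraries a group in S only large changes could pass.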
